A study of Mus musculus with 8 samples.

Results

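The genes described are 9 transcription factor genes that direct T helper fates other than Th17, or act beside those that do: Tbx21, Eomes, Hlx, Runx3, Runx1, Gata3, Gfi1, Bcl6 and Tox. They were taken by symbol from the array's probe annotation, which gave 19 probe sets with 1 of these symbols. The array names 18193 genes in this way, and all 45037 probe sets that are not array controls were tested. Per the labels, Affymetrix whole-genome mouse arrays were hybridised with total RNA of C57BL/6 CD4 T cells, sorted as naive cells and held for 48 h under Th17 conditions on antibodies to CD3 and CD28. There were 4 groups of 2 arrays: RORγt-deficient with digoxin, RORγt-deficient with DMSO, wildtype with digoxin and wildtype with DMSO. All 4 groups shared the strain, the stimulation and the Th17 culture. RORγt is the nuclear receptor that drives Th17 differentiation, digoxin is a cardiac glycoside that blocks the sodium-potassium pump, and DMSO is its solvent. The title of the series states that digoxin acts as an antagonist of RORγt. The sources used here give neither the allele, the sex or age of the mice nor the digoxin dose. The 2 arrays of each group are named biological replicates in their titles, with no statement that separate mice or cultures were used. The p-values therefore cover only the spread seen between arrays, part of which may be technical.

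A naive CD4 T cell can take one of several fates, each held by a lead transcription factor that also restrains the others. Tbx21 encodes T-bet, the T-box factor of Th1 cells, and Gata3 encodes the zinc finger factor of Th2 cells. Bcl6 encodes the repressor that leads follicular helper cells, which help B cells in germinal centres. The RUNX factors bind DNA with the partner CBFβ and work with T-bet, with RORγt and with other lineage factors, and T-bet is known to restrain Th17 differentiation, partly by holding Runx1 away from the gene of RORγt.

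Changes were tested with limma, which fits a linear model to each probe set and shares the variance estimate between probe sets. A probe set is named as called where the two-sided p, adjusted over all 45037 by Benjamini-Hochberg, was under 0.05. None of the 9 genes passed that test in any comparison. In the 4 comparisons of 2 groups the widest difference was that of Hlx, which under digoxin stood 0.50 above DMSO in RORγt-deficient cells and 0.63 above DMSO in wildtype cells on the log2 scale. The lowest in these comparisons was 1 of the 3 Tox probe sets, at -0.47 under digoxin in wildtype cells. Tbx21 stood above both wildtype DMSO arrays in all 6 other arrays, at 0.31 to 0.52 relative to the wildtype DMSO mean. Of all probe sets, 7.47% lay above in all 6. The group means of Gata3, Gfi1, Runx3 and Runx1 lay between -0.32 and 0.24 of the wildtype DMSO mean. In the same cells Il17a, the signature cytokine gene of the Th17 fate, fell by 2.11 in RORγt deficiency (adjusted p = 0.000319, limma) and fell by 2.39 under digoxin in wildtype cells (adjusted p = 0.000189, limma). It also fell by 1.88 under digoxin in RORγt-deficient cells (adjusted p = 0.00185, limma) and by 1.60 in RORγt deficiency under digoxin (adjusted p = 0.00868, limma). These last 2 calls held in 14 and 8 of 16 alternative settings, with values from -2.01 to -0.71 and from -1.72 to -0.51.

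Each value is given on the log2 scale relative to the average of both wildtype DMSO arrays of that probe set, because the deposited values were centred that way, and they hold no absolute level. The binary step of the deposited numbers still shows in which range the lowest array of a probe set lay before centring. Of the 19 probe sets, 2 lay between 2 and 4 on the log2 scale of RMA (both of Eomes), 15 between 4 and 8 and 2 at 8 or above (Gfi1 and 1 of Runx3). Among all probe sets 32.8% lay between 2 and 4, 46.5% between 4 and 8 and 17.8% at 8 or above. These ranges are those of a probe set's own signal and do not rank the genes. For the label of the cells, all 8 probe sets standing for CD4 T cell genes (Cd3e, Cd3g, Cd3d, Cd4, Cd28, Cd5, Cd6 and Cd2) lay at 8 or above, against 0 of those standing for CD8 T cell, NK, B cell, myeloid and gamma delta T cell markers. These are signals of separate probe sets and give no shares of cell types. The genotype labels could not be checked on the gene of RORγt itself, which is not analysed here.

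**Figure D1:**
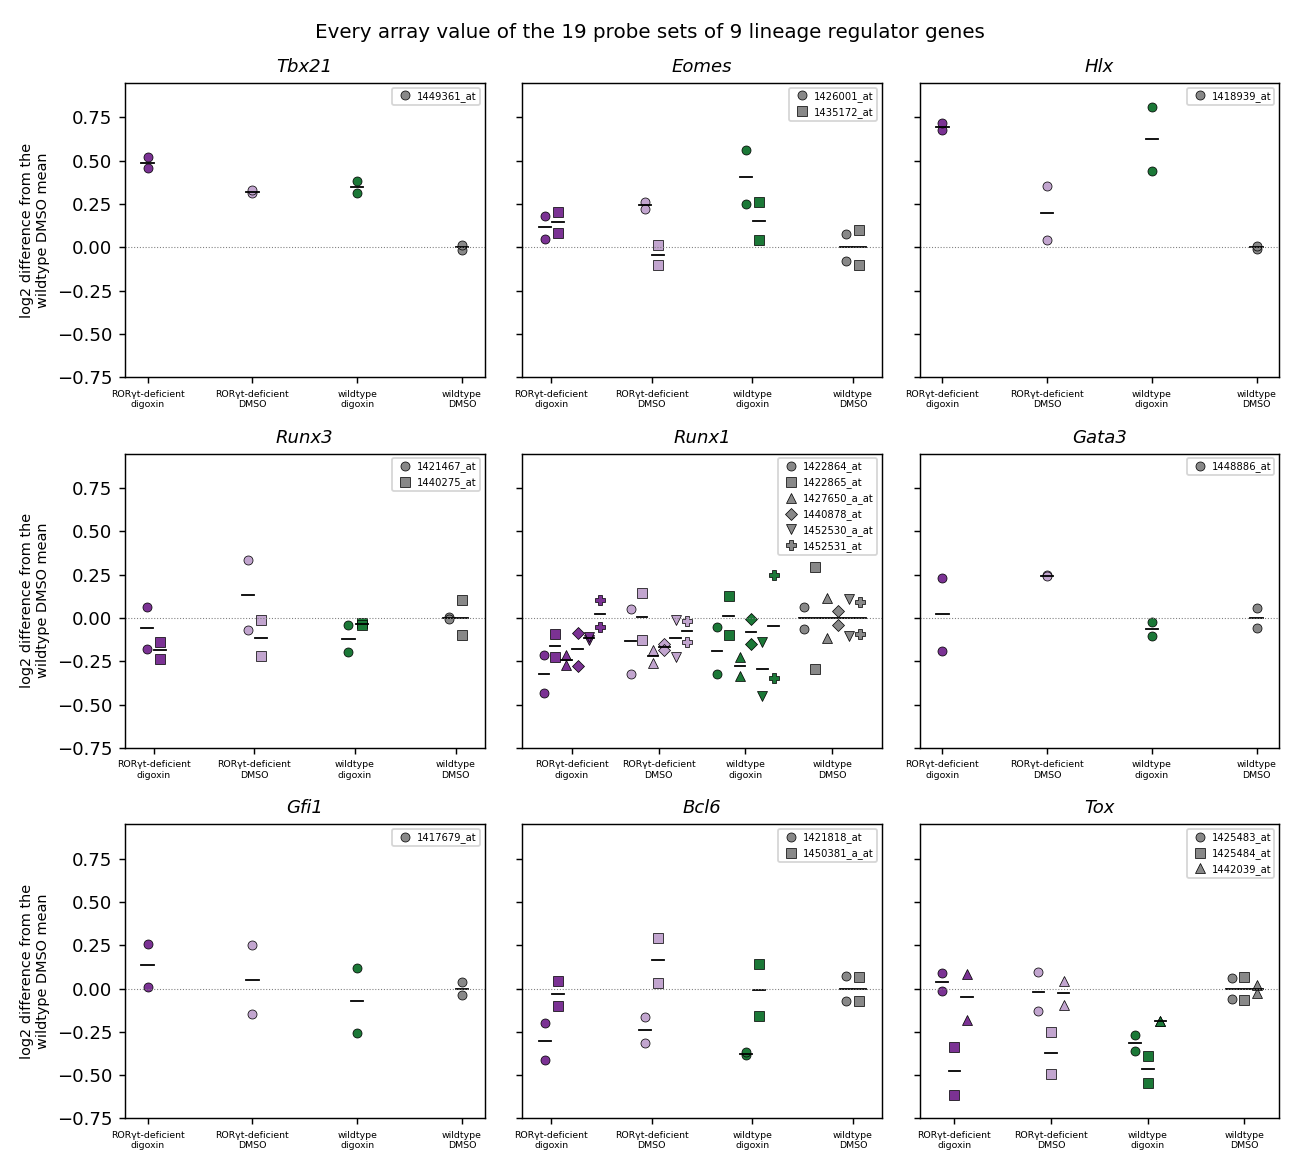
Every array value of the 19 probe sets, one panel per gene. The vertical axis is the log2 difference from the wildtype DMSO mean, each point is 1 array, the marker shape is the probe set, the short line is the mean of the 2 arrays, and the groups run from RORγt-deficient digoxin to wildtype DMSO. Tbx21 and Hlx lie above the wildtype DMSO arrays in all 6 other arrays, as do 7.47% of all probe sets. Tox 1425484_at, Bcl6 1421818_at and Runx1 1427650_a_at lie below them in all 6, as do 7.76%.

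Upstream sequences of 3 genes are shown: those of Tbx21 and Hlx, the members that lay above wildtype DMSO on all other arrays, and that of Gata3, which holds the only T-box core found upstream of the Th1 and Th2 lead factors. Each runs 5′ to 3′ on the coding strand over the 250 bases before the start site, from RefSeq (GRCm38.p6): Tbx21 at chr11:97115332-97115581 (minus strand), Hlx at chr1:184732494-184732743 (minus strand) and Gata3 at chr2:9878601-9878850 (minus strand). Capitals mark a letter match.
Tbx21: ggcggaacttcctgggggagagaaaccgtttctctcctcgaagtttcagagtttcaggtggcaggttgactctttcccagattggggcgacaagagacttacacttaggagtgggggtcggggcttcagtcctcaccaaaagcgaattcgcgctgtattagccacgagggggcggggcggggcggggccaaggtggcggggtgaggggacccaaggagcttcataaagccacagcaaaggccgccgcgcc
Hlx: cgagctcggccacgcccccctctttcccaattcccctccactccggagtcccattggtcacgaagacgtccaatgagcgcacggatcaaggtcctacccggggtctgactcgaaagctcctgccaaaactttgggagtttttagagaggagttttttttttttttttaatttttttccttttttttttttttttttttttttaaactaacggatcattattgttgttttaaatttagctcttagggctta
Gata3: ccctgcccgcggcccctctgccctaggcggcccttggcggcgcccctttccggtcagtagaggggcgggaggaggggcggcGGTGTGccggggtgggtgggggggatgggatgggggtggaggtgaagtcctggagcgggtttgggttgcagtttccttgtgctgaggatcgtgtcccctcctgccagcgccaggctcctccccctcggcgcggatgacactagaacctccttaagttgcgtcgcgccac
Letters were searched on both strands. RefSeq entries were found for 8 of the 9 genes, with 12 start sites in all, and none for Tox. The core of the ROR element, AGGTCA, stood in 0 of the 12 windows, and in 14.0% of all 32851 windows of this length. The T-box core, GGTGTG, stood in 2 of the 12, upstream of Gata3 and of 1 of the Gfi1 start sites, against 16.3% of all windows. The match before Gata3 ended 164 bases before the start site. The RUNX site searched, TGTGGT, stood in 1 of the 12, before 1 of the Runx3 start sites, as a pair of matches, against 14.0% of all windows. The GATA site searched, AGATAA, stood in 0 of the 12, against 9.99% of all windows. A match describes letters only, and its absence from these windows says nothing about binding elsewhere.

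RORγt-deficient cells were first set against wildtype cells in DMSO, which asks whether losing RORγt in Th17 culture is accompanied by a move of the factors of other fates. Limma called 0 of the 19 probe sets, where it called 0.611% of all 45037 probe sets (275). At an unadjusted p under 0.05 there were 2 of the 19, Tbx21 and Tox probe set 1425484_at, against 9.06% of all probe sets. The arrays of the groups did not overlap for 8 of the 19, against 40.2% of all probe sets, so that count is near the background. The median difference over the 19 was -0.03, against 0.01 over all probe sets.

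Tbx21 gave 0.31 and 0.33 on the RORγt-deficient DMSO arrays, against -0.01 and 0.01 on the wildtype DMSO arrays (the log2 scale, probe set 1449361_at). Both deficient arrays lay above both wildtype arrays. The difference was 0.32 ± 0.10 (SE, n = 2 arrays per group, 95% interval 0.09 to 0.55), or 1.25-fold, with an adjusted p of 0.322 by limma.

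Eomes encodes the second T-box factor of T cells, known from CD8 memory and NK cells. Its probe set 1426001_at gave 0.26 and 0.22 on the RORγt-deficient DMSO arrays, against 0.08 and -0.08 on the wildtype DMSO arrays, a difference of 0.24 ± 0.13. The other probe set, 1435172_at, stood at -0.04 ± 0.13 with overlapping arrays. Both lay in the lowest of the signal ranges, between 2 and 4.

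Hlx encodes a homeobox factor that acts with T-bet on Th1 genes. It gave 0.04 and 0.36 on the RORγt-deficient DMSO arrays, against -0.01 and 0.01 on the wildtype DMSO arrays. The difference of 0.20 ± 0.15 rested on which deficient array was kept, being 0.04 without RORγt-deficient DMSO array 2 and 0.36 without array 1. Runx3, the RUNX factor of CD8 and Th1 cells, differed in sign between its probe sets, at 0.13 ± 0.15 for 1421467_at and -0.12 ± 0.12 for 1440275_at, with overlapping arrays in both.

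Runx1, the RUNX factor that also partners RORγt in Th17 cells, had 6 probe sets. In RORγt deficiency they ranged from -0.22 to 0.01, with 5 of 6 below 0. The lowest, 1427650_a_at, gave -0.26 and -0.18 on the RORγt-deficient DMSO arrays, against 0.11 and -0.11 on the wildtype DMSO arrays, a difference of -0.22 ± 0.12 (95% interval -0.48 to 0.04).

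Gata3 gave 0.25 and 0.24 on the RORγt-deficient DMSO arrays, against 0.06 and -0.06 on the wildtype DMSO arrays. The groups did not overlap, and the difference was 0.24 ± 0.14 (95% interval -0.07 to 0.56, adjusted p = 0.665 by limma). Gfi1, a zinc finger repressor that promotes Th2 growth, gave 0.25 and -0.15 on the RORγt-deficient DMSO arrays, against -0.04 and 0.04 on the wildtype DMSO arrays, which overlapped.

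Bcl6 was read by 2 probe sets that went opposite ways. Probe set 1421818_at gave -0.16 and -0.31 on the RORγt-deficient DMSO arrays, against 0.07 and -0.07 on the wildtype DMSO arrays, a difference of -0.24 ± 0.12. Probe set 1450381_a_at gave 0.04 and 0.29 on the RORγt-deficient DMSO arrays, against 0.07 and -0.07 on the wildtype DMSO arrays, a difference of 0.16 ± 0.14. No direction can be given for Bcl6 from these values.

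Tox encodes an HMG-box factor needed for CD4 lineage development in the thymus and found in follicular helper cells. Its probe set 1425484_at gave -0.25 and -0.49 on the RORγt-deficient DMSO arrays, against -0.06 and 0.06 on the wildtype DMSO arrays. The difference was -0.37 ± 0.14 (95% interval -0.68 to -0.06, adjusted p = 0.439 by limma). The other probe sets, 1425483_at and 1442039_at, stood at -0.02 ± 0.12 and -0.03 ± 0.12, with overlapping arrays, so the Tox probe sets did not move alike.

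Digoxin was then compared with DMSO in wildtype cells, the setting where RORγt is present. This comparison uses the same wildtype DMSO arrays as the one above, so the 2 sets of differences are not independent. Limma again called 0 of the 19 probe sets, against 0.0622% of all probe sets (28). At an unadjusted p under 0.05 there were 7 of the 19, from 6 genes, against 6.26% of all probe sets. Of these 7, 3 were higher (Hlx, Tbx21 and Eomes 1426001_at), against 3.17% of all probe sets, and 4 were lower (2 of Tox, Bcl6 1421818_at and Runx1 1427650_a_at), against 3.1%. Probe sets of a gene share their RNA and are not separate observations. The arrays did not overlap for 10 of the 19, against 36.6% of all probe sets, and the median difference was -0.07, against 0.01 over all probe sets.

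Hlx gave 0.44 and 0.81 on the wildtype digoxin arrays, against -0.01 and 0.01 on the wildtype DMSO arrays. Both digoxin arrays lay above both DMSO arrays. The difference of 0.63 ± 0.15 (95% interval 0.29 to 0.96), or 1.54-fold, had the smallest p of the 19 probe sets, rank 216 of the 45037, and an adjusted p of 0.389 by limma. It ranged from 0.44 to 0.81 when each array was left out in turn.

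Tbx21 gave 0.38 and 0.31 on the wildtype digoxin arrays, against -0.01 and 0.01 on the wildtype DMSO arrays. The difference was 0.35 ± 0.10 (95% interval 0.12 to 0.57, adjusted p = 0.585 by limma), and 0.31 to 0.38 with each array left out in turn. Eomes 1426001_at gave 0.25 and 0.56 on the wildtype digoxin arrays, against 0.08 and -0.08 on the wildtype DMSO arrays, a difference of 0.41 ± 0.13. Eomes 1435172_at stood at 0.15 ± 0.13, with overlapping arrays.

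Tox 1425484_at gave -0.39 and -0.54 on the wildtype digoxin arrays, against -0.06 and 0.06 on the wildtype DMSO arrays, a difference of -0.47 ± 0.14 (95% interval -0.77 to -0.16, adjusted p = 0.585 by limma). Here the other Tox probe sets lay on the same side, at -0.31 ± 0.12 for 1425483_at and -0.19 ± 0.12 for 1442039_at, and all 3 had digoxin arrays below both DMSO arrays. Bcl6 1421818_at gave -0.38 and -0.37 on the wildtype digoxin arrays, against 0.07 and -0.07 on the wildtype DMSO arrays, a difference of -0.38 ± 0.12. Bcl6 1450381_a_at stood at -0.01 ± 0.14, so the Bcl6 probe sets again gave no common answer.

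The 6 Runx1 probe sets ranged from -0.30 to 0.01 under digoxin in wildtype cells, 5 of them below 0. Gata3 gave -0.02 and -0.10 on the wildtype digoxin arrays, against 0.06 and -0.06 on the wildtype DMSO arrays, a difference of -0.06 ± 0.14 (95% interval -0.38 to 0.25). Gfi1 stood at -0.07 ± 0.17, and the Runx3 probe sets at -0.12 ± 0.15 and -0.04 ± 0.12.

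**Figure D2:**
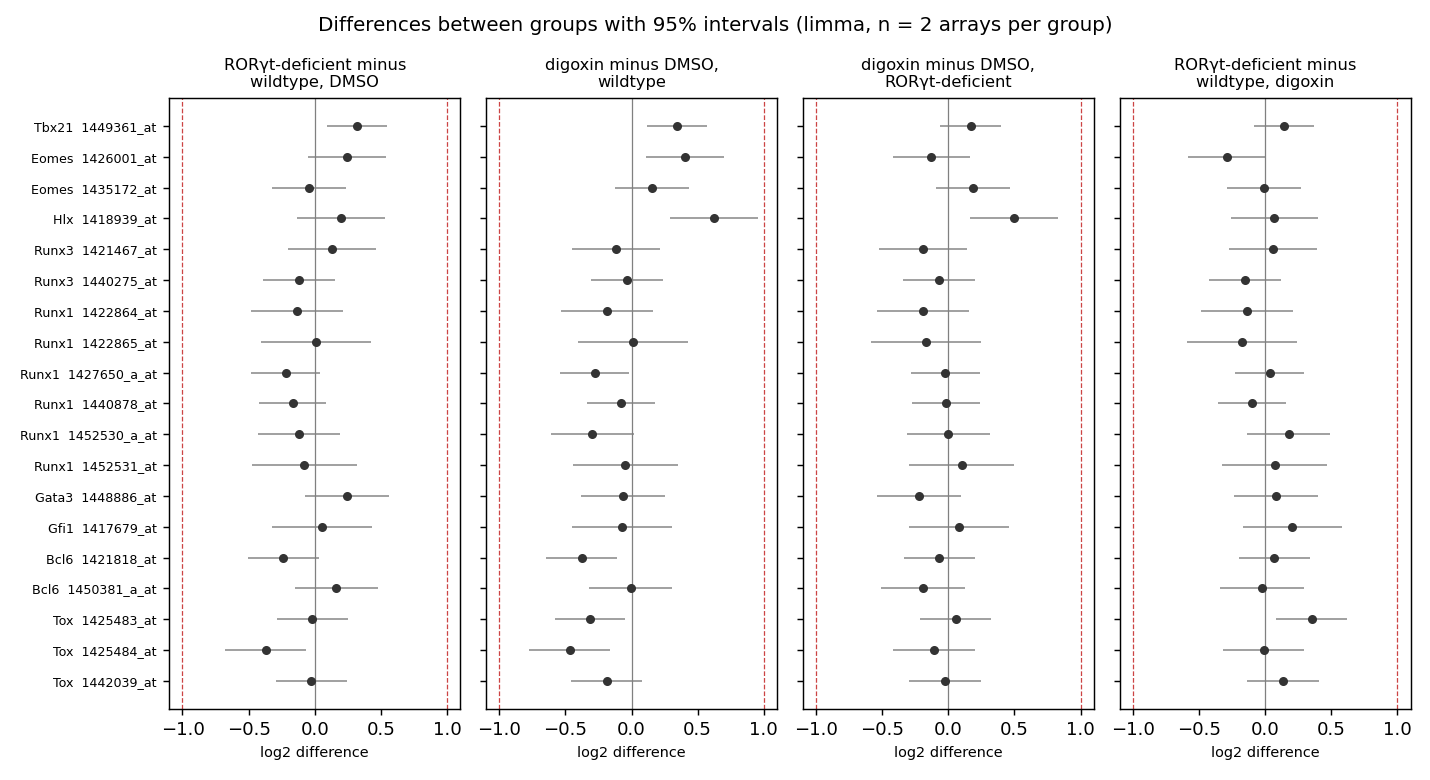
Differences between groups for the 19 probe sets in 4 comparisons. The horizontal axis is the log2 difference, points are limma estimates with 95% intervals from 2 arrays per group, and dashed lines mark a 2-fold difference in either direction. All 19 intervals lie within the dashed lines in each panel, and Hlx under digoxin in wildtype cells reaches furthest, to 0.96.

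The effect of digoxin in RORγt-deficient cells, where the receptor is missing, was read from arrays not used in the wildtype comparison. Limma called 0 of the 19, against 0.00222% of all probe sets (1, that of Il17a). Hlx was the 1 member at an unadjusted p under 0.05, against 3.41% of all probe sets, and the arrays did not overlap for 5 of the 19, against 28.2%. Hlx gave 0.67 and 0.72 on the RORγt-deficient digoxin arrays, against 0.04 and 0.36 on the RORγt-deficient DMSO arrays. The groups did not overlap, and the difference was 0.50 ± 0.15 (95% interval 0.17 to 0.83, adjusted p = 1.0 by limma, rank 165 of 45037).

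Tbx21 gave 0.52 and 0.46 on the RORγt-deficient digoxin arrays, against 0.31 and 0.33 on the RORγt-deficient DMSO arrays, a difference of 0.17 ± 0.10 (95% interval -0.06 to 0.40). Tox 1425484_at gave -0.62 and -0.34 on the RORγt-deficient digoxin arrays, against -0.25 and -0.49 on the RORγt-deficient DMSO arrays, which overlapped. Gata3 gave -0.19 and 0.23 on the RORγt-deficient digoxin arrays, against 0.25 and 0.24 on the RORγt-deficient DMSO arrays, a difference of -0.22 ± 0.14. The gap between the 2 digoxin arrays was wider than that difference.

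The difference between the digoxin effects, that in RORγt-deficient cells minus that in wildtype cells, was called for 0 of the 19 and for 0% of all probe sets. Eomes 1426001_at was the 1 member at an unadjusted p under 0.05, against 2.78% of all probe sets (1253). Its digoxin effect was -0.13 ± 0.13 in RORγt-deficient cells and 0.41 ± 0.13 in wildtype cells, a difference of -0.53 ± 0.18 (95% interval -0.95 to -0.12, adjusted p = 1.0 by limma). Its other probe set stood at 0.03 ± 0.18. For Hlx the difference between the effects was -0.13 ± 0.21 (95% interval -0.60 to 0.34), and for Tbx21 -0.18 ± 0.14 (95% interval -0.50 to 0.14), so neither was shown to depend on the genotype, and neither was shown to be the same in both.

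Under digoxin, RORγt-deficient cells were set against wildtype cells, with 0 of the 19 called, against 0.00222% of all probe sets. Tox 1425483_at was the 1 member at an unadjusted p under 0.05, against 4.77%, and the arrays did not overlap for 6 of the 19, against 30.2%. It gave -0.01 and 0.09 on the RORγt-deficient digoxin arrays, against -0.27 and -0.36 on the wildtype digoxin arrays, a difference of 0.35 ± 0.12 (adjusted p = 0.963 by limma). Tox 1425484_at stood at -0.01 ± 0.14 in the same comparison. Tbx21 stood at 0.14 ± 0.10, Gata3 at 0.08 ± 0.14 and Hlx at 0.07 ± 0.15.

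In all 5 comparisons the 95% intervals of all 19 probe sets lay within 1 on either side of 0, that is, within 2-fold. The lowest bound was -0.95 and the highest 0.96. The SD of a member probe set ranged from 0.10 to 0.19, with a median of 0.14, against 0.13 over all probe sets. The smallest difference that limma called was 0.55 in RORγt deficiency and 0.78 under digoxin in wildtype cells, both over all probe sets.

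Across the arrays, 5 of the 19 probe sets had all 6 other arrays outside the pair of wildtype DMSO arrays. Tbx21 and Hlx lay above, against 7.47% of all probe sets, and Tox 1425484_at, Bcl6 1421818_at and Runx1 1427650_a_at lay below, against 7.76%. All of these rest on the same 2 wildtype DMSO arrays. A test of any difference among the 4 groups (limma's F test) called 0 of the 19, against 0.466% of all probe sets. The smallest F test p of the members belonged to Hlx (adjusted p = 0.179), Tbx21 (adjusted p = 0.261) and Tox 1425484_at (adjusted p = 0.467), all from limma. These 3 were under 0.05 before adjustment, as were 8.09% of all probe sets.

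Probe sets of a gene followed each other loosely over the 8 arrays, which share the 4 groups and the centring. The Pearson correlation was 0.48 between the Eomes probe sets, -0.46 between those of Runx3 and -0.13 between those of Bcl6. It was 0.22, 0.53 and 0.68 among those of Tox, and between -0.37 and 0.69 among those of Runx1. Gene by gene statements for these 5 genes are therefore made by probe set.

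By a stated rule, the genes with the most similar course over the 8 arrays were taken for the 3 members with the smallest F test p, among 501 genes whose SD over the arrays was at least 0.3. For Tbx21 they were Cd86, a costimulatory ligand gene, Xdh, the gene of xanthine dehydrogenase, and Chit1, a chitinase gene, each with r = 0.98 over 8 arrays. For Hlx they were Ctsw, the gene of cathepsin W (r = 0.91), the MHC class I gene H2-T24 (r = 0.88) and Fgr, a Src family kinase gene (r = 0.86). For Tox 1425484_at they were Mex3b, an RNA-binding protein gene (r = 0.96), Alg6, a glycosylation enzyme gene (r = 0.94), and Furin, a proprotein convertase gene (r = 0.93). These are the highest of 501 values over few arrays and describe the course only.

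The genes that the factors are known to act on were read from lists of the Th1, Th2 and follicular helper programmes. In RORγt deficiency limma called 1 of 17 probe sets of the Th1 list (14 of 16 genes measured), 0 of 24 of the Th2 list (14 of 16 genes) and 0 of 28 of the follicular helper list (15 of 16 genes). Over all probe sets 0.611% were called. The medians of the lists were -0.04, 0.10 and 0.06. Under digoxin in wildtype cells 0 were called in each, against 0.0622% of all probe sets, with medians of 0.01, 0.02 and 0.07, against 0.01 over all probe sets.

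Il12rb2, which encodes the IL-12 receptor chain that marks Th1 cells, was the called Th1 gene. It gave 0.67 and 0.77 on the RORγt-deficient DMSO arrays, against -0.10 and 0.10 on the wildtype DMSO arrays, and rose by 0.72 ± 0.13 (adjusted p = 0.0432 by limma). The call was lost when any 1 of the 8 arrays was left out, with adjusted p up to 0.36, while the value stayed between 0.61 and 0.82 over all alternatives. Under digoxin in wildtype cells Il12rb2 stood at 0.55 ± 0.13 and Cxcr3, a chemokine receptor gene driven by T-bet, at 0.53 ± 0.11, neither of them called. The other IL-12 and IL-18 receptor genes of the list lay below 0 there: Il12rb1, the partner chain of the IL-12 receptor, at -0.30 ± 0.12, the IL-18 receptor gene Il18r1 at -0.13 ± 0.12, and the probe sets of its partner Il18rap at -0.05 ± 0.12 and -0.17 ± 0.14. Ifng, the lead Th1 cytokine gene, stood at -0.06 ± 0.19 in RORγt deficiency and at -0.03 ± 0.19 under digoxin, from a probe set in the range of 2 to 4.

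In the Th2 list the smallest p in RORγt deficiency were those of Cd200r1, an inhibitory receptor gene (0.58 ± 0.12, adjusted p = 0.091 by limma), and Epas1 (-0.37 ± 0.13). The Th2 cytokine genes Il4 and Il13 stood at 0.09 ± 0.12 and 0.01 ± 0.11, and Il5 at 0.32 ± 0.15. The probe sets of Il4 and Il5 lay in the range of 2 to 4, and the range of that of Il13 was unclear. In the follicular helper list they were those of Tnfsf8, the gene of CD30 ligand (0.79 ± 0.15, adjusted p = 0.0581 by limma), and Slamf6, a SLAM family receptor gene, by 1420659_at (0.71 ± 0.16). Of the other Slamf6 probe sets, 1425086_a_at stood at 0.66 ± 0.16 and 1457773_at at 0.02 ± 0.15. Cxcr5, the receptor that takes follicular helper cells into B cell follicles, stood at -0.01 ± 0.12 in RORγt deficiency, at 0.24 ± 0.12 under digoxin in wildtype cells and at 0.36 ± 0.12 under digoxin in RORγt-deficient cells.

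Relatives and partners of the 9 factors (13 of 15 genes, 20 probe sets) gave 0 called probe sets in every comparison. Over all probe sets 0.611% were called in RORγt deficiency and 0.0622% under digoxin in wildtype cells. The list's medians were -0.07 and -0.11 in these comparisons, against 0.01 over all probe sets in both. Of the 20, 5 were at an unadjusted p under 0.05 in each, 4 of them lower. Over all probe sets the shares at that p were 9.06% and 6.26%. Some of the 20 share a gene and are not separate observations. Tox2, a relative of Tox, had the smallest p under digoxin in wildtype cells, at -0.60 ± 0.15 by 1440156_s_at, with its other probe set at -0.11 ± 0.11. In RORγt deficiency the lowest were Zfpm1, which encodes the GATA cofactor FOG-1 (-0.47 ± 0.13), and Tox2 (-0.46 ± 0.15). Cbfb, the shared partner of the RUNX factors, stood at 0.00 ± 0.12 and 0.09 ± 0.12 in these comparisons.

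Among other regulators of helper lineages (19 of 20 genes, 56 probe sets), 1 probe set was called in RORγt deficiency, against 0.611% of all probe sets, that of Maf, which encodes c-Maf, an activator of the genes of IL-4, IL-10 and IL-21. At an unadjusted p under 0.05 there were 11 of the 56 higher in RORγt deficiency, against 3.9% of all probe sets, and the list's median was 0.16. The 56 probe sets come from 19 genes, so genes with several probe sets, Maf among them, weigh more in this count. Probe sets of a gene share their RNA and are not separate observations, so the count does not measure how many genes moved. Maf 1447849_s_at gave 1.08 and 0.87 on the RORγt-deficient DMSO arrays, against 0.00 and 0.00 on the wildtype DMSO arrays, and rose by 0.98 ± 0.11 (adjusted p = 0.00769 by limma). The signal range of this probe set was unclear, and its wildtype DMSO arrays had an SD of only 1e-04. The call was lost without wildtype DMSO array 1 (adjusted p = 0.0767), without wildtype DMSO array 2 (adjusted p = 0.101) and without RORγt-deficient DMSO array 1 (adjusted p = 0.0521), all by limma, and held without each of the other 5. Its other 5 probe sets stood from 0.44 to 0.64, none of them called. Under digoxin in wildtype cells Maf 1447849_s_at stood at 0.51 ± 0.11 (adjusted p = 0.301 by limma).

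Tbx21 and Eomes are also expressed by NK and CD8 T cells, so their markers are given beside them. The mean over the 6 measured NK and innate genes was 0.59 and 0.70 on the RORγt-deficient digoxin arrays, 0.51 and 0.47 on the RORγt-deficient DMSO arrays, 0.48 and 0.50 on the wildtype digoxin arrays, and 0.02 and -0.02 on the wildtype DMSO arrays. Most of this mean came from Klrd1 and Klrc1. Without these genes, which were left out after their values were seen, the mean over the other 4 was 0.25 and 0.42 on the RORγt-deficient digoxin arrays, 0.12 and 0.17 on the RORγt-deficient DMSO arrays, 0.12 and 0.30 on the wildtype digoxin arrays, and 0.06 and -0.06 on the wildtype DMSO arrays. In RORγt deficiency limma called 2 of the 7 NK probe sets, against 0.611% of all probe sets, those of Klrd1 (1.38 ± 0.11) and Klrc1 (0.87 ± 0.14, 1 of its 2 probe sets), genes that activated T cells can also express. The call of Klrd1 held in 15 of 16 alternative settings, those without each of the 8 arrays among them, with an adjusted p of up to 0.119 by limma. That of Klrc1 held in 7 of 15, and with 1 array left out only when it was a wildtype digoxin array. Klrd1 rose under digoxin in wildtype cells too, by 1.36 ± 0.11 (adjusted p = 0.00251 by limma), the 1 of the 7 called there, against 0.0622% of all probe sets. That call was lost without wildtype DMSO array 1 (adjusted p = 0.0534 by limma) and after quantile normalisation (adjusted p = 0.0943 by limma). Ncr1, a marker of NK cells, lay in the range of 2 to 4, at 0.00 ± 0.14 in RORγt deficiency and 0.10 ± 0.14 under digoxin in wildtype cells. Tyrobp, an adaptor of NK and myeloid receptors, stood at 0.07 ± 0.15 and 0.01 ± 0.15. The lectin-like receptor genes Klre1 and Klra8 stood higher, Klre1 at 0.19 and 0.48 and Klra8, in the range of 2 to 4, at 0.32 and 0.24. All 7 NK probe sets lay above 0 in both comparisons. At an unadjusted p under 0.05 there were 4 of the 7 in each, against 9.06% and 6.26% of all probe sets.

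The mean over the 7 CD8 T cell genes ran from 0.20 to 0.44 on the 6 other arrays, against -0.01 and 0.01 on the wildtype DMSO arrays. Without Klrk1, left out after its values were seen, the mean over the other 6 ran from 0.02 to 0.32 on the 6 other arrays, against 0.01 and -0.01 on the wildtype DMSO arrays. In RORγt deficiency 1 of the 12 CD8 probe sets was called, against 0.611% of all probe sets. It was that of Klrk1 (1.06 ± 0.16, adjusted p = 0.0233 by limma). All 5 probe sets of Cd8a and that of Cd8b1 were not called. Klrk1 stood at a like value, 1.03, under digoxin in wildtype cells, where 0 of the 12 were called, against 0.0622%. The call of Klrk1 held in 9 of 16 alternative settings, and with 1 array left out likewise only when it was a wildtype digoxin array. The CD4 T cell genes, at 8 or above, had means of 0.11 to 0.24 on the 6 other arrays, against -0.03 and 0.03 on the wildtype DMSO arrays. The part of these markers in the values of Tbx21, Eomes and Hlx was not tested. In these bulk cultures a change in the share of cells of a type and a change in RNA per cell cannot be told apart.

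**Figure D3:**
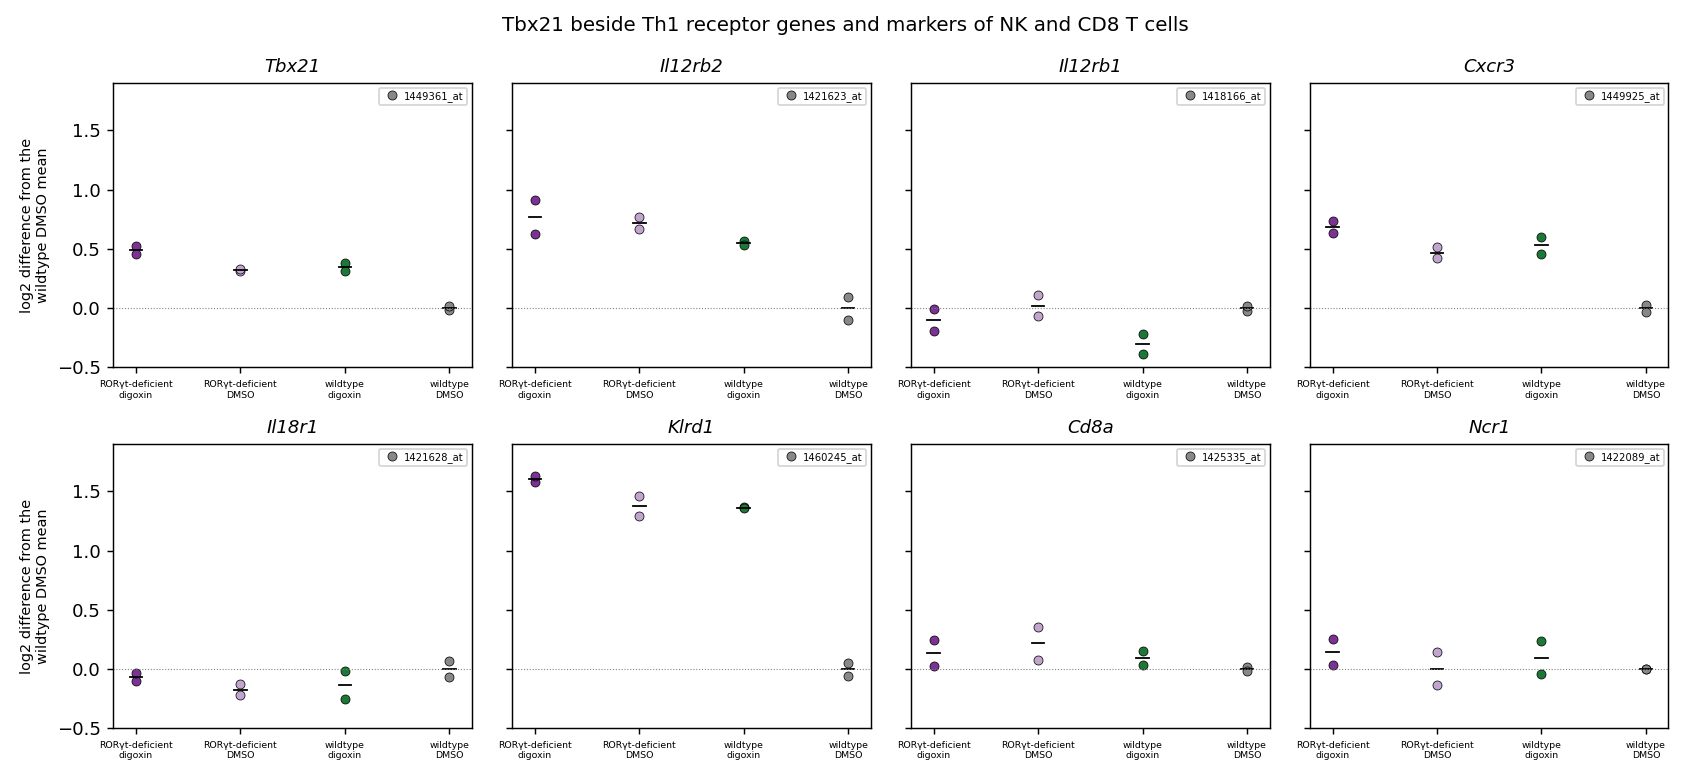
Tbx21 beside the Th1 receptor genes Il12rb2, Il12rb1, Cxcr3 and Il18r1, the lectin-like receptor gene Klrd1, and Cd8a and Ncr1, which mark CD8 T cells and NK cells. The vertical axis is the log2 difference from the wildtype DMSO mean, points are arrays and short lines are group means. On the 6 other arrays Klrd1 lies between 1.29 and 1.63, Tbx21 between 0.31 and 0.52, Il12rb1 between -0.39 and 0.11, and Ncr1 between -0.14 and 0.26.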

How the data were processed

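Gene expression was measured on 8 one-colour Affymetrix arrays, in 4 groups of 2 assigned from the titles. Per the submitters' processing notes the authors summarised probe intensities with RMA, and the design text names GeneSpring as the software. The deposited file holds log2 values of 45101 probe sets. For every probe set the pair of wildtype DMSO values sums to 0 within 1e-06, so the values were centred on their mean, a step that no label records and that leaves differences between groups as they were. Scan dates are not given in the sources used here.

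Of the 45037 probe sets that are not array controls, 34945 had 1 gene symbol, and only these were named. Tests used limma 3.58.1 (R 4.3.3) on all 45037, as 4 group means over all 8 arrays with default eBayes (4 residual and 5.8 prior degrees of freedom). Tests were two-sided, with Benjamini-Hochberg adjustment within a comparison across all probe sets, and a call needed an adjusted p under 0.05. Standard errors from limma follow each ± sign. The range of the lowest array was read from the binary step of the deposited numbers, and both this reading and limma were tested on simulated data. Precision is limited by there being 2 arrays per group.

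The 9 genes, the other gene lists, the comparisons and the tests were chosen with earlier results of these data known. Members were all probe sets of the 9 symbols. Other genes were named as those called in a list, or otherwise the 2 with the smallest p in a list and comparison. Cytokine, receptor and marker genes and Cbfb were added after their values were seen, as were further probe sets of named genes. Alternatives covered normalisation, centring, probe sets tested, signal range, arrays in the fit, weights, the variance prior, the replicate number as a block and each array left out.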

Additional observations from a re-analysis of the deposited data

How the results depend on the processing

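Over 16 alternative settings the members were called 0 times in 1441 recomputed values, with a smallest adjusted p of 0.210. The sign changed in 80 of these values, 74 of them with an array left out, none with a difference over 0.19. Leaving out 1 array, the members at an unadjusted p under 0.05 numbered 1 to 2 in RORγt deficiency (1 without RORγt-deficient DMSO array 2 or wildtype DMSO array 1), 5 to 7 under digoxin in wildtype cells, 1 to 2 under digoxin in RORγt-deficient cells, 0 to 2 in RORγt deficiency under digoxin and 0 to 2 for the difference between the digoxin effects. All probe sets called then numbered 21 to 318, 3 to 25, 0 to 1, 0 to 1 and 0 to 1 in the same order. In RORγt deficiency they were 69 and 33 without RORγt-deficient DMSO array 1 or 2, 25 and 21 without wildtype DMSO array 1 or 2, and 121 without either RORγt-deficient digoxin array. Under digoxin in wildtype cells they were 13 and 16 without wildtype digoxin array 1 or 2, and 3 and 7 without wildtype DMSO array 1 or 2. Quantile normalisation called 5 probe sets in RORγt deficiency, 5 under digoxin in wildtype cells and 0 in the other comparisons, and left 1 member at an unadjusted p under 0.05 in RORγt deficiency. Fits restricted to the groups being compared called 81, 15 and 0 probe sets in RORγt deficiency, under digoxin in wildtype cells and in RORγt deficiency under digoxin. With 1 probe set per gene, which leaves 9 member probe sets, 1, 2 and 2 were at an unadjusted p under 0.05 in RORγt deficiency, in RORγt deficiency under digoxin and for the difference between the digoxin effects. With array medians set to 0 there were 2 in RORγt deficiency under digoxin, and with only probe sets at 4 or above, which drops Eomes, 0 for the difference between the digoxin effects. Where a setting dropped arrays or probe sets, the fit had fewer of them, and otherwise the cause was not tested. The titles number the arrays alike in each group. Deviations of same-numbered arrays correlated at 0.30 to 0.46 among the groups other than wildtype DMSO and at -0.24 to -0.13 with wildtype DMSO. The numbers were therefore not taken as pairs across the 4 groups. That reason does not cover digoxin in RORγt-deficient cells or RORγt deficiency under digoxin, which do not use wildtype DMSO. A paired fit of those comparisons alone was not run. With the replicate number as a block 308 probe sets were called in RORγt deficiency, 36 under digoxin in wildtype cells and 1, 1 and 0 in the other comparisons, with 0 members called in each.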

Other observations

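Of the 145 probe sets of the 5 helper lists, 33 were at an unadjusted p under 0.05 in RORγt deficiency, 22.8% against 9.06% of all probe sets. Under digoxin in wildtype cells 22 were, 15.2% against 6.26%. In RORγt deficiency under digoxin and for the difference between the digoxin effects 8 were in each, 5.52% against 4.77% and 2.78%. Under digoxin in RORγt-deficient cells 6 were, which is 4.14% against 3.41%, and limma called 0 of them. The medians of the 5 lists in this comparison ran from -0.02 to 0.11, against 0.01 over all probe sets. These shares describe the lists only and were not tested. The lists were chosen with earlier results of these data known. They also hold several probe sets of some genes, which share their RNA and are not separate observations. The shares in RORγt deficiency and under digoxin in wildtype cells rest on the same wildtype DMSO arrays and are not independent.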
